A study of Arabidopsis thaliana with 4 samples.

Results

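The genes described here are plastid-encoded genes of photosynthesis in Arabidopsis thaliana, and they may not be every such gene. They belong to photosystem I, photosystem II, the cytochrome b6f complex, the NDH complex and the ATP synthase. The list also holds rbcL, the gene of the large Rubisco subunit. The genes were chosen by locus, as 44 of the 33602 gene models in the count tables. By complex they were 5 photosystem I genes, 15 photosystem II genes, 5 cytochrome b6f genes, 12 NDH loci, 6 ATP synthase genes and rbcL. The NDH loci include both copies of ndhB, and the psb genes include psbN, which is known as an assembly factor of photosystem II rather than a subunit.

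RNA came from the aerial organs of otp90 plants, a knock-out carried by line SM_3_29659, and of plants of the wild type Col-0, with 2 libraries per genotype. Plants of both genotypes were untreated, grew on soil under light that did not exceed 90 µE per square metre per second, at temperatures of 18 to 21 °C, and were harvested at Boyes stage 1.09. Trizol-extracted total RNA was depleted of rRNA and made into stranded libraries with a size of 230 bp, which were read from one end on an Ion Proton. Nothing in the labels tells whether replicates were separate plants or pools, and the p-values then reflect only how much these libraries differ, which may be technical. All mutant plants were of 1 knock-out line, and the transcript of the mutated gene was not analysed here.

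Plastid genes are transcribed mostly in long units that hold several genes, by a bacterial-type polymerase with plastid-encoded core subunits and nuclear-encoded sigma factors. The primary transcripts are cut, spliced, edited and protected at their ends by nuclear-encoded RNA-binding proteins, so genes of one unit can differ in RNA level. Photosystem II, the cytochrome b6f complex and photosystem I carry electrons in turn, the ATP synthase uses the resulting proton gradient, and the NDH complex returns electrons from the stroma to the plastoquinone pool.

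Excluding rRNA, the libraries held 1374590 and 1750669 counts in otp90 replicates 1 and 2, and 2503502 and 1723267 counts in Col-0 replicates 1 and 2. Reads that aligned equally well to more than one place had been removed before counting, which took between 79.9% and 87.0% of the mapped reads. The photosynthesis genes averaged 31.98% ± 4.43 in otp90 libraries and 27.7% ± 4.07 in Col-0 libraries, as a share of the counts without rRNA (SD, n = 2 each). Single libraries stood at 35.1% and 28.8% in otp90, against 30.6% and 24.8% in Col-0, so the genotypes overlapped, with otp90 the higher in each replicate number. Of the plastid counts without rRNA these genes were 92.8% and 91.3% in otp90, and 90.8% and 90.9% in Col-0. The green tissue markers RBCS1A, LHCB3 and RCA were all present, with a summed level of 16005 and 10349 CPM (counts scaled to library size) in otp90 and 11735 and 14029 CPM in Col-0. RCA made up most of this sum. LHCB3 had 2360 and 462 CPM in otp90 and 4616 and 370 CPM in Col-0, lower in replicate 2 of each genotype, and RBCS1A was the highest in Col-0 replicate 2. Of the markers of other organs, PYK10, CRA1, AP3 and AG, the summed level was 26.0 and 92.7 CPM in otp90 and 20.1 and 32.5 CPM in Col-0. Nearly all of this was the root gene PYK10, while the seed gene CRA1 and the flower genes AP3 and AG had between 0 and 5 counts in any library. The part of these differences in the results below was not tested.

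Levels are given as CPM per kilobase of coding length (CPM per kb), after scaling of the libraries by TMM, so that they can be compared between genes and libraries. All 44 deposited lengths were multiples of 3, as coding lengths are, and 41 equalled the coding length in the TAIR10.1 annotation. Both ndhB copies were listed at 1170 bases where that annotation has 1539, and ndhD at 1521 where it has 1503. Lengths ran between 96 and 2253 bases, and 14 genes were shorter than the library size of 230 bp. The median level was 1215 CPM per kb for those 14 and 3026 CPM per kb for the 28 expressed genes of 230 bases or more. The part of gene length in that difference was not tested.

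The RNA of these genes was spread very unevenly. The mean level of psbA over the 4 libraries was 820-fold that of ndhF, the lowest gene with counts. Together psbA and rbcL held 66.1% and 78.2% of the counts of all 44 genes in otp90, against 71.4% and 75.8% in Col-0. By level per length, 20 of the 44 were among the 50 highest of 33587 gene models in the tables, with psbA at rank 3 and rbcL at rank 5, and 23 were among the 100 highest. The lowest gene with counts stood at rank 701. Below rbcL the order was a gradual one. Of the 41 pairs of neighbours in the order of mean level, the 4-library ranges were apart only between rbcL and psbB, and the ranges of the other 40 pairs overlapped. The order itself was much the same in each library. Pearson correlations of log2 level between libraries lay between 0.972 and 0.983 over 42 genes, as a description across genes that share a library and a length, and the correlations across genotypes overlapped those within a genotype.

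**Figure D1:**
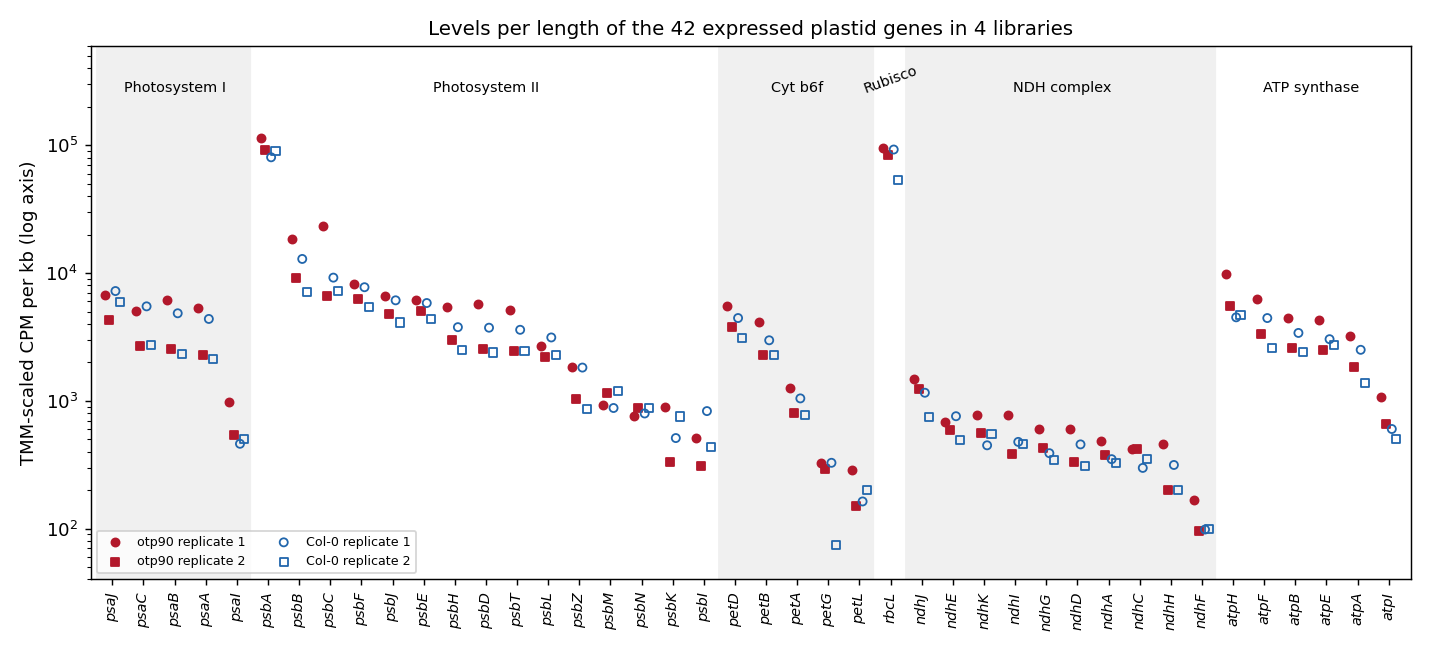
Level of each of the 42 genes with counts, in CPM per kb on a log axis, grouped by complex and ordered by mean level within it; filled red symbols are otp90 libraries and open blue symbols Col-0 libraries, circles replicate 1 and squares replicate 2. psbA and rbcL reach at least 53344 CPM per kb in every library, and the NDH genes lie between 94.9 and 1489 CPM per kb.

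Between otp90 and Col-0, no photosynthesis gene passed the test. Of 11938 genes tested with edgeR's quasi-likelihood test, 42 were photosynthesis genes and 0 of these were called at an adjusted p under 0.05, as was 0% of all genes tested. At an unadjusted p under 0.05 there were 0 of the 42, against 1.41% of all genes, and DESeq2 likewise called 0, with 0 at an unadjusted p under 0.05. The adjusted p from edgeR was 0.9998 for every one of the 42.

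The log2 fold changes of the 42 lay between -0.63 and 0.87, with standard errors between 0.43 and 0.76. Their median was 0.29, against -0.01 for all genes tested and -0.03 for the 33 other plastid protein-coding genes tested. A positive sign was found for 36 of the 42, against 49.2% of all genes tested. All 42 of the 95% intervals included 0, and their bounds ran between -1.81 and 2.57. In 9 genes both otp90 libraries lay above both Col-0 libraries, which held for 12.4% of all genes tested. These were psbA, psaI, atpH, atpI, ndhA, ndhC, ndhG, ndhJ and ndhK. In 0 of the 42 genes did both otp90 libraries lie below both Col-0 libraries, which held for 13.5% of all genes tested. Both counts are for levels under TMM and depend on that scaling. As shares of the non-rRNA counts, psbA, ndhC and ndhK overlapped between genotypes. On that scale psaJ, psbI and psbL were lower in both otp90 libraries than in both Col-0 libraries. The share of all genes tested was not computed on that scale. The 42 genes come from the same plastid genome and the same libraries, so their signs are not independent of each other. In bulk RNA a difference in the share of green cells and a difference in RNA per cell cannot be told apart.

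The direction of the median rested on otp90 replicate 1. Without otp90 replicate 1 the median was -0.07 and 15 of the 42 signs were positive. Without otp90 replicate 2 the median was 0.67, without Col-0 replicate 1 it was 0.54, and without Col-0 replicate 2 it was 0.10. Under scaling to library totals the median of all genes moved to -0.11 and that of the photosynthesis genes to 0.16, a distance of 0.27. With scaling on the other plastid protein-coding genes, the median of all genes was -0.15 and that of the photosynthesis genes 0.14.

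The median difference by replicate number was larger than that by genotype. With genotype as a term in the fit, 39 of the 42 genes were lower in number 2, with a median log2 difference of -0.51, against 0.03 over all genes tested. By edgeR's quasi-likelihood test 0 of the 42 were called for number, while 0.804% of all genes tested were. The lowest values were those of psaB, at -1.17 (SE 0.50), and psaA, at -1.13 (SE 0.50). The other plastid protein-coding genes had the same sign in 29 of 33, with a median of -0.49. This comparison was chosen after the data were seen. Within number 1 the median log2 ratio of otp90 over Col-0 was 0.43, with 36 of 42 positive, and within number 2 it was 0.11, with 28 of 42 positive. In 27 genes otp90 was the higher in both numbers, in 5 the lower in both, and in 10 the signs were opposite. The labels do not tell whether a number marks a shared batch.

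**Figure D2:**
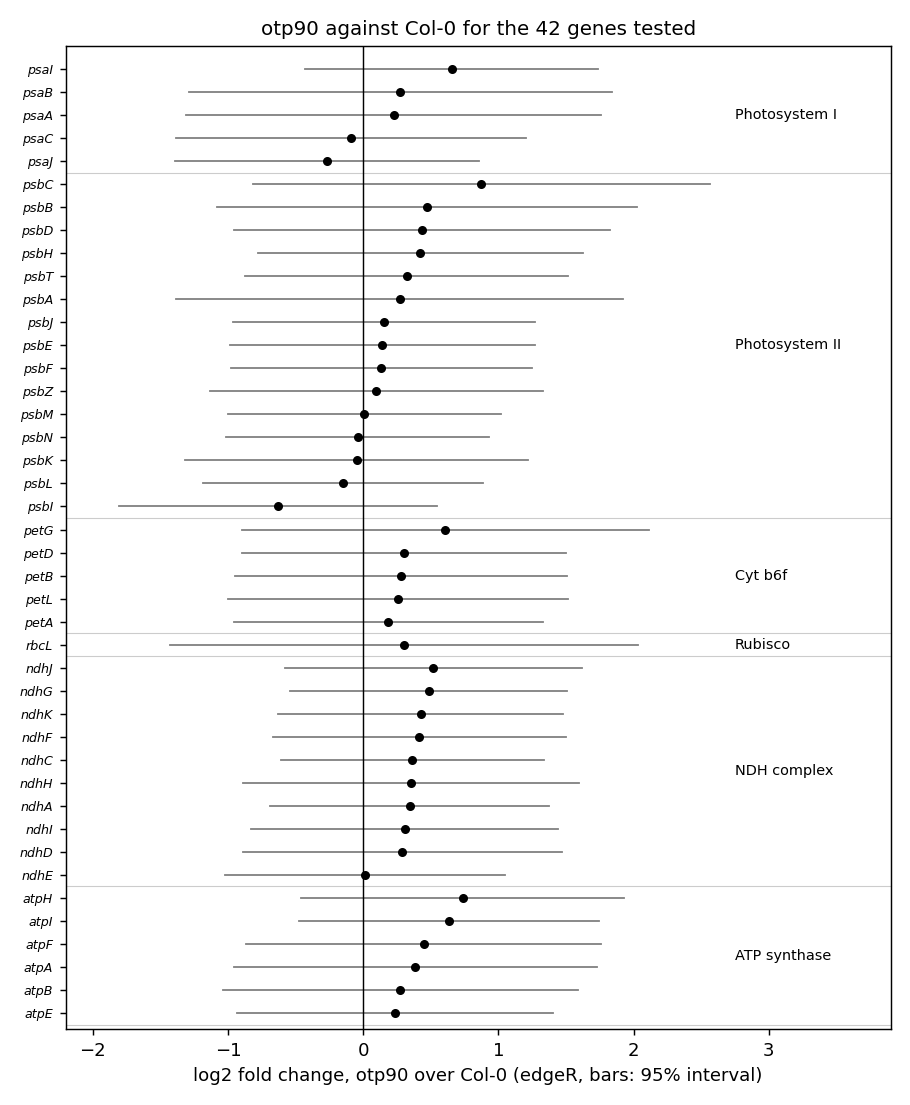
Log2 fold change of otp90 over Col-0 for the 42 genes tested, grouped by complex and ordered by size within it, with 95% intervals from edgeR as bars. Most points lie right of 0, between -0.63 and 0.87, and every interval crosses 0.

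In photosystem I the plastid encodes the core proteins psaA and psaB, the iron-sulphur protein psaC, and the small membrane subunits psaI and psaJ. The highest mean level in this complex was that of psaJ (ATCG00630), with 6698 and 4266 CPM per kb in otp90 and 7231 and 5973 CPM per kb in Col-0. Its log2 fold change was -0.27 (SE 0.49), with otp90 replicate 2 the lowest library and the genotypes overlapping. The lowest level was that of psaI (ATCG00510), with 976 and 541 CPM per kb in otp90 and 461 and 500 CPM per kb in Col-0. Both otp90 libraries were above both Col-0 libraries for psaI, at a log2 fold change of 0.65 (SE 0.48). That gene rests on 137 and 111 counts in otp90, and 131 and 107 counts in Col-0.

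The large core genes split by replicate number rather than by genotype. psaA stood at 5323 and 2279 CPM per kb in otp90, and at 4373 and 2132 CPM per kb in Col-0. psaB stood at 6120 and 2525 CPM per kb in otp90, and at 4843 and 2309 CPM per kb in Col-0. In both genes the replicate 1 libraries of both genotypes were above both replicate 2 libraries. psaC, which is transcribed among ndh genes, showed the same split by replicate number, with 5058 and 2673 CPM per kb in otp90 and 5487 and 2745 CPM per kb in Col-0. The median log2 fold change of the 5 photosystem I genes was 0.22, with 3 of 5 positive. It was -0.49 without otp90 replicate 1, with 1 of 5 positive, -0.19 when Col-0 replicate 2 was left out, also with 1 of 5 positive, and 0.73 without otp90 replicate 2, with 5 of 5 positive.

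Photosystem II holds psbA, the photosynthesis gene with the highest mean level per length, which encodes the D1 reaction centre protein that is damaged by light and constantly replaced. psbA (ATCG00020) had 113655 and 92257 CPM per kb in otp90 and 80589 and 90305 CPM per kb in Col-0. Both otp90 libraries were above both Col-0 libraries, but the lower of them exceeded the higher Col-0 library only slightly. The log2 fold change was 0.27 (SE 0.73). Of the non-rRNA counts, psbA took 10.82% (95% Wilson interval 10.77 to 10.87) and 10.08% (10.03 to 10.12) in otp90, against 8.53% (8.49 to 8.56) and 10.44% (10.4 to 10.49) in Col-0. On this scale the genotypes overlapped. These intervals cover counting error only.

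The reaction centre partner D2 is encoded by psbD, and the inner antenna proteins by psbB and psbC. The gene with the highest log2 fold change of all 42 was psbC (ATCG00280), at 0.87 (SE 0.74). It had 23477 and 6660 CPM per kb in otp90, against 9209 and 7236 CPM per kb in Col-0. Its otp90 libraries thus lay on either side of both Col-0 libraries, and without otp90 replicate 1 its log2 fold change was -0.28. The other antenna gene, psbB, had 18539 and 9154 CPM per kb in otp90 and 12896 and 7073 CPM per kb in Col-0. psbD had 5723 and 2558 CPM per kb in otp90 and 3734 and 2387 CPM per kb in Col-0. For both genes replicate 1 was the higher library of each genotype, and the genotypes overlapped.

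The small photosystem II subunits covered a wide range of levels. psbE and psbF, the subunits of the cytochrome of photosystem II, averaged 5600 ± 822 and 7248 ± 1363 CPM per kb in otp90, and 5083 ± 1051 and 6608 ± 1611 CPM per kb in Col-0 (SD, n = 2 each). The lowest of the complex was psbI (ATCG00080), a small subunit bound to the reaction centre, with 512 and 310 CPM per kb in otp90 and 831 and 437 CPM per kb in Col-0. It had the most negative log2 fold change of the 42, at -0.63 (SE 0.52), on 70 and 62 counts in otp90 and 230 and 91 counts in Col-0. Its genotypes overlapped. psbK, the gene before psbI in the same unit, had 895 and 331 CPM per kb in otp90 and 511 and 754 CPM per kb in Col-0, with the otp90 libraries on either side of the Col-0 libraries. In 1 of the 15 photosystem II genes, psbA, both otp90 libraries lay above both Col-0 libraries, beside 12.4% of all genes tested. The median log2 fold change of the 15 was 0.14, with 11 of 15 positive, beside 49.2% of all genes tested. Without otp90 replicate 1 the median was -0.10, with 4 of 15 positive, and without otp90 replicate 2 it was 0.44.

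The gene psbN lies on the strand opposite the psbB unit, between psbT and psbH. The strand setting of the counting is unknown, so its reads and those of the transcript opposite to it may be shared. psbN had 756 and 871 CPM per kb in otp90 and 796 and 880 CPM per kb in Col-0, at a log2 fold change of -0.04 (SE 0.43). Its spread was small beside that of its neighbours on the other strand: psbT had 5133 and 2445 CPM per kb in otp90 and 3596 and 2466 CPM per kb in Col-0, and psbH had 5401 and 2987 CPM per kb in otp90 and 3771 and 2485 CPM per kb in Col-0. psbM, a small subunit encoded in a unit of its own here, had 928 and 1158 CPM per kb in otp90 and 878 and 1198 CPM per kb in Col-0. In psbM, as in psbN, replicate 2 was the higher library of each genotype, against the order seen in psbB, psbD, psaA and psaB.

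In the cytochrome b6f complex, petA encodes cytochrome f, petB cytochrome b6 and petD subunit IV, while petG and petL encode small subunits. The highest gene was petD (ATCG00730), with 5554 and 3768 CPM per kb in otp90 and 4445 and 3121 CPM per kb in Col-0. Its genotypes overlapped, at a log2 fold change of 0.30 (SE 0.53). petB had 4104 and 2292 CPM per kb in otp90 and 2977 and 2296 CPM per kb in Col-0. petA, from another unit, was lower in every library than petB and petD, with 1258 and 809 CPM per kb in otp90 and 1044 and 772 CPM per kb in Col-0.

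The small genes petL and petG were the least counted of all genes with counts. petL (ATCG00590) had 288 and 150 CPM per kb in otp90 and 163 and 200 CPM per kb in Col-0, from 34 and 26 counts in otp90 and 39 and 36 counts in Col-0. petG (ATCG00600) had 328 and 292 CPM per kb in otp90, and 327 and 74.8 CPM per kb in Col-0, where replicate 2 rests on 16 counts. Its log2 fold change was 0.61 (SE 0.66) and was -0.07 without that Col-0 library. The genotypes overlapped in both genes. The genotypes were apart in 0 of the 5 genes of the complex. Of all genes tested, 12.4% were apart with otp90 higher and 13.5% with otp90 lower. All 5 had a positive sign, beside 49.2% of all genes tested, with a median of 0.28. Without otp90 replicate 1 the median was -0.145, with 2 of 5 positive.

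The large subunit of Rubisco, the enzyme that fixes carbon dioxide, is encoded by rbcL (ATCG00490). Its level was 95923 and 84252 CPM per kb in otp90 and 92709 and 53344 CPM per kb in Col-0. Col-0 replicate 2 was the low library, and Col-0 replicate 1 lay between the otp90 libraries, so the genotypes overlapped. The log2 fold change was 0.30 (SE 0.76), and -0.03 without Col-0 replicate 2. Of the non-rRNA counts, rbcL took 12.38% (95% Wilson interval 12.32 to 12.43) and 12.48% (12.43 to 12.53) in otp90, against 13.3% (13.26 to 13.34) and 8.36% (8.32 to 8.41) in Col-0. The 4 tested nuclear genes of the small subunit had a median log2 fold change of -0.52, with 0 of 4 positive and 0 called. In Col-0, replicate 2 was their high library: RBCS1A had 2135 and 560 CPM in otp90, and 888 and 4009 CPM in Col-0.

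The NDH genes had low levels. Of the 12 NDH loci, 10 were tested, and the log2 fold changes of these lay between 0.02 and 0.52, with a median of 0.36. All 10 were positive with the 4 libraries under TMM, beside 49.2% of all genes tested. However ndhE, at 0.02, was negative under scaling to library totals or to the other plastid genes. None was called, and under TMM 5 of 10 had both otp90 libraries above both Col-0 libraries, beside 12.4% of all genes tested. As shares of the non-rRNA counts, ndhA, ndhG and ndhJ stayed apart, while ndhC and ndhK overlapped. Without otp90 replicate 1 the median was 0.07, with 5 of 10 positive, and without Col-0 replicate 2 it was 0.30, with 9 of 10 positive. The complex took 1.19% and 1.099% of the counts of all 44 genes in otp90, and 1.08% and 1.19% in Col-0. Relative to the other photosynthesis genes, the NDH share therefore did not separate the genotypes.

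The genes ndhH, ndhI, ndhJ and ndhK encode the stromal arm that takes up electrons. The highest was ndhJ (ATCG00420), with 1489 and 1227 CPM per kb in otp90 and 1156 and 742 CPM per kb in Col-0. Its genotypes were apart, at a log2 fold change of 0.52 (SE 0.48). ndhK was also apart under TMM, with 779 and 560 CPM per kb in otp90 and 448 and 549 CPM per kb in Col-0. The nearest libraries of the genotypes were almost level in ndhK, and they overlapped as shares of the non-rRNA counts. ndhH had 458 and 200 CPM per kb in otp90 and 314 and 200 CPM per kb in Col-0, and its genotypes overlapped. ndhI likewise overlapped, with 780 and 382 CPM per kb in otp90 and 477 and 462 CPM per kb in Col-0.

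The genes ndhA to ndhG encode the membrane arm. The one with the smallest p was ndhG (ATCG01080), with 598 and 426 CPM per kb in otp90 and 389 and 342 CPM per kb in Col-0. Its genotypes were apart, at a log2 fold change of 0.48 (SE 0.45). ndhA had 481 and 374 CPM per kb in otp90 and 349 and 325 CPM per kb in Col-0. ndhC had 418 and 419 CPM per kb in otp90 and 298 and 352 CPM per kb in Col-0. Both of these genes were apart under TMM, but ndhC overlapped as a share of the non-rRNA counts. The nearest libraries of the genotypes differed by less in ndhA than the otp90 libraries did from each other. The lowest gene with counts was ndhF (ATCG01010), which is transcribed on its own, with 168 and 94.9 CPM per kb in otp90 and 98.2 and 98.7 CPM per kb in Col-0. Only otp90 replicate 1 stood above the others in ndhF, and without it the log2 fold change was -0.03 in place of 0.41 (SE 0.48).

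Both copies of ndhB (ATCG00890 and ATCG01250), which lie in the inverted repeat, had 0 counts in all 4 libraries. For counted reads only, and not for RNA, a count of 0 allows each copy up to 0.000218% and 0.000171% of the non-rRNA counts in otp90. In Col-0 these bounds were 0.00012% and 0.000174%, and all of them cover counting error only. The annotated coding sequences of the copies are identical, so every read from them aligns equally well to both, and such reads had been removed. Their counts of 0 are therefore no measure of ndhB RNA in either genotype. Repeated 100-base windows made up 2.60% of rbcL, 2.14% of ndhF and 1.53% of atpI, and none of the other expressed photosynthesis genes.

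The 6 ATP synthase genes were all positive in sign, beside 49.2% of all genes tested, and 0 were called. In 2 of 6 both otp90 libraries lay above both Col-0 libraries, beside 12.4% of all genes tested. The median log2 fold change of the 6 was 0.42. Without otp90 replicate 1 the median was -0.05, with 2 of 6 positive. atpH (ATCG00140) encodes the subunit that forms the rotating membrane ring and was the highest, with 9800 and 5563 CPM per kb in otp90 and 4503 and 4717 CPM per kb in Col-0. Its genotypes were apart, at a log2 fold change of 0.74 (SE 0.52), the one with the smallest edgeR p of the 42. atpI (ATCG00150), the membrane subunit beside the ring, was the lowest, with 1066 and 653 CPM per kb in otp90 and 601 and 505 CPM per kb in Col-0. Its genotypes were also apart, at a log2 fold change of 0.64 (SE 0.49).

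The catalytic head subunits atpA and atpB, the epsilon subunit atpE and the stalk subunit atpF overlapped between genotypes. atpF had 6270 and 3339 CPM per kb in otp90 and 4444 and 2608 CPM per kb in Col-0. atpA had 3213 and 1852 CPM per kb in otp90 and 2507 and 1370 CPM per kb in Col-0. atpB had 4413 and 2600 CPM per kb in otp90 and 3398 and 2395 CPM per kb in Col-0. In these genes, as in psaA and psaB, replicate 1 was the higher library of each genotype. The nuclear genes of the ATP synthase had a median of 0.08, with 2 of 3 tested positive and 0 called.

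Within transcription units, genes next to each other differed in level by a factor that was largely kept from library to library. The members fell into 11 units with at least 2 expressed photosynthesis genes, with 26 pairs of neighbours among these genes. The ratio of levels per length varied less than 1.5-fold over the 4 libraries in 13 of the 26, and less than 2-fold in 22 of the 26. The ratios between genes of separate units that are given below varied between 1.29-fold and 1.95-fold. A range under 2-fold was thus not particular to neighbours in a unit, and its share over all pairs was not computed. Units are the textbook ones. Genes of a unit outside the 44 were not used, so neighbours here may have such genes between them. Genotypes were apart for 10 of the 26 ratios, beside 22.8% of all 861 ratios between pairs of photosynthesis genes with counts.

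The steadiest unit was that of psaA and psaB. The ratio of psaB to psaA was 1.15 and 1.11 in otp90 and 1.11 and 1.08 in Col-0, although the level of each gene varied more than 2-fold. In the unit of psbE, psbF, psbL and psbJ, the ratio of psbF to psbE was 1.33 and 1.25 in otp90 and 1.33 and 1.26 in Col-0. The next step was a drop: psbL to psbF stood at 0.327 and 0.348 in otp90 and 0.404 and 0.415 in Col-0. psbJ, the last gene, was above psbL again, at 2.46 and 2.18 in otp90 and 1.95 and 1.81 in Col-0. psbL thus sat low between higher neighbours in every library, and both of its ratios set the genotypes apart by less than 1.5-fold.

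The unit of psbB, psbT, psbH, petB and petD mixes photosystem II and cytochrome b6f genes. The ratio of psbT to psbB was 0.277 and 0.267 in otp90 and 0.279 and 0.349 in Col-0, so that psbB, the first gene, stood well above the rest. From psbT on the levels were closer to each other. petB to psbH stood at 0.760 and 0.767 in otp90 and 0.790 and 0.924 in Col-0, and petD to petB at 1.35 and 1.64 in otp90 and 1.49 and 1.36 in Col-0. Across the change of complex, between psbH and petB, the ratio was thus about as steady as between genes of one complex in this unit.

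In the unit of psbD, psbC and psbZ the ratios were less steady. psbC to psbD was 4.10 and 2.60 in otp90 and 2.47 and 3.03 in Col-0, with otp90 replicate 1 the high library. psbZ to psbC was 0.0787 and 0.154 in otp90 and 0.198 and 0.119 in Col-0, with the same library the low one. The coding sequences of psbD and psbC overlap by 53 bases in the TAIR10.1 annotation, and how reads in the overlap were assigned is unknown. psbZ itself had 1847 and 1028 CPM per kb in otp90 and 1820 and 863 CPM per kb in Col-0, so that the 2 replicate 1 libraries were level with each other in psbZ and not in psbC.

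Along the ATP synthase unit of atpI, atpH, atpF and atpA, the first step was the steepest. atpH to atpI stood at 9.19 and 8.52 in otp90 and 7.49 and 9.34 in Col-0. atpF to atpH was 0.640 and 0.600 in otp90, and 0.987 and 0.553 in Col-0, with Col-0 replicate 1 the high library. The order from atpH down to atpA was the same in every library, and atpA to atpF was 0.513 and 0.555 in otp90 and 0.564 and 0.525 in Col-0. In the other ATP synthase unit, atpE to atpB was 0.968 and 0.964 in otp90 and 0.894 and 1.14 in Col-0, near the same level for both genes, whose coding sequences overlap by 4 bases in that annotation.

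The longest unit, ndhH, ndhA, ndhI, ndhG, ndhE, psaC and ndhD, holds a photosystem I gene among NDH genes. psaC stood above ndhE, the gene before it, by 7.48-fold and 4.56-fold in otp90, and by 7.25-fold and 5.59-fold in Col-0. The gene after it, ndhD, was at 0.119 and 0.124 of psaC in otp90, and at 0.0831 and 0.113 in Col-0. In level psaC was therefore close to psaA and psaB, its partners in photosystem I, and not to its neighbours in the unit. The ndh genes of this unit differed less from each other. ndhD, a membrane subunit, had 604 and 332 CPM per kb in otp90 and 456 and 311 CPM per kb in Col-0, and its genotypes overlapped. ndhA to ndhH was 1.051 and 1.87 in otp90 and 1.11 and 1.63 in Col-0, with replicate 2 higher in both genotypes, while ndhE to ndhG was 1.13 and 1.38 in otp90 and 1.95 and 1.44 in Col-0.

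In the unit of ndhC, ndhK and ndhJ the levels climbed along the unit in every library. ndhK to ndhC was 1.86 and 1.34 in otp90 and 1.503 and 1.56 in Col-0, and ndhJ to ndhK was 1.91 and 2.19 in otp90 and 2.58 and 1.35 in Col-0. The unit of petL, petG and psaJ showed the steepest step of all neighbours, with psaJ at 20.5-fold and 14.6-fold petG in otp90, and at 22.1-fold and 79.9-fold petG in Col-0. The last of these rests on the 16 counts of petG in Col-0 replicate 2. petA to psaI, whose unit also holds genes outside the 44, was 1.29 and 1.496 in otp90 and 2.27 and 1.54 in Col-0.

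**Figure D3:**
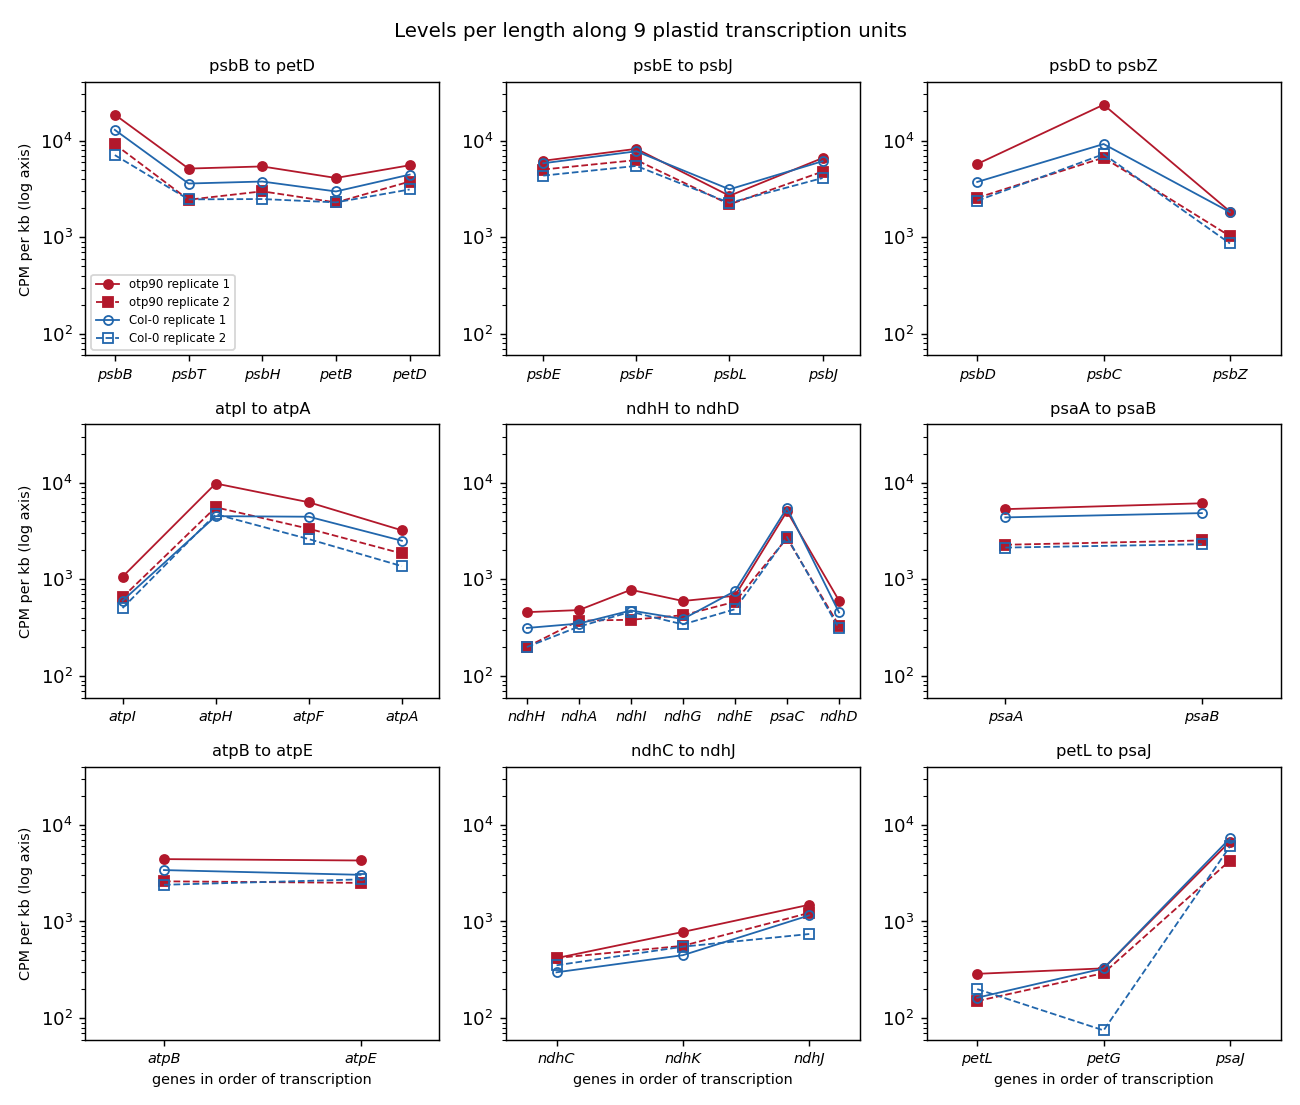
Levels per length, in CPM per kb on a log axis, of photosynthesis genes along 9 transcription units in order of transcription; red filled symbols are otp90 libraries, blue open symbols Col-0 libraries, solid lines and circles replicate 1, dashed lines and squares replicate 2. Over all 11 units, the ratio of neighbours varied less than 1.5-fold over the 4 libraries in 13 of 26 pairs, and less than 2-fold in 22. psaC lies far above its ndh neighbours and atpH far above atpI in every library.

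The steadiness of these ratios was compared over all pairs of the 39 genes with at least 100 counts in every library, as the SD over the 4 libraries of the log2 ratio of counts. For 52 pairs in the same unit the median SD was 0.25, with a range of 0.04 to 0.57. For 125 pairs in the same complex but in other units it was 0.39, and for 564 pairs in other complexes and other units 0.34. Counting error alone gives a median of about 0.07, 0.08 and 0.07 for these kinds. At the median, count ratios within a unit were thus steadier than those within a complex across units, although the ranges overlap and pairs that share a gene are not independent. Among the 20 genes with at least 1000 counts in every library, a bound chosen after the data were seen, the medians were 0.14 for 13 pairs in the same unit, 0.34 for 31 pairs in the same complex and 0.31 for 146 other pairs.

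Units differed in this spread. The median SD was 0.13 over the 6 pairs of the psbE unit and 0.14 over the 10 pairs of the psbB unit. It was 0.26 over the 6 pairs of the atpI unit and 0.28 over the 21 pairs of the ndhH unit. The psbD unit and the ndhC unit, with 3 pairs each, had 0.33 and 0.39.

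**Figure D4:**
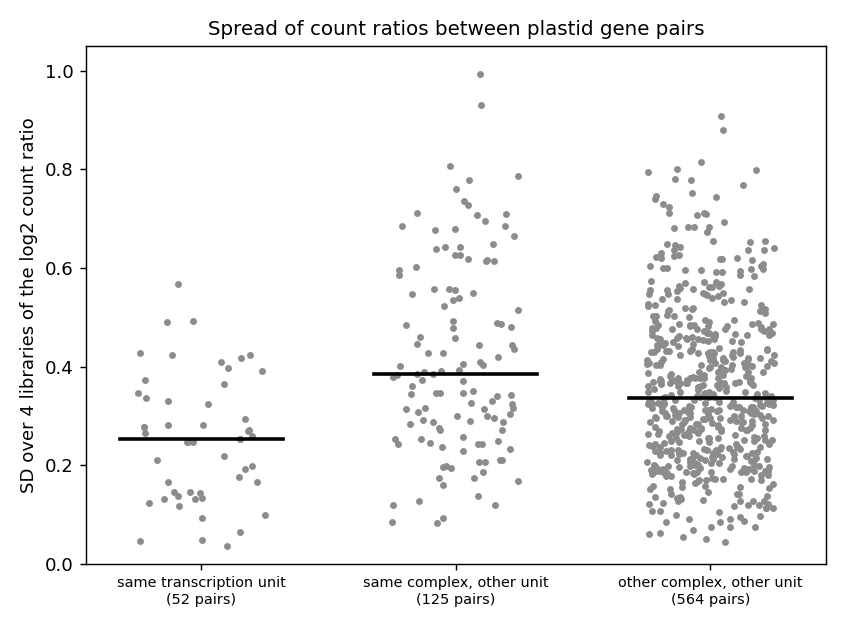
SD over the 4 libraries of the log2 count ratio for each pair of genes with at least 100 counts in every library, for pairs in the same transcription unit, in the same complex but other units, and in other complexes and other units; grey points are pairs and black bars medians. The medians are 0.25, 0.39 and 0.34, and the ranges overlap.

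Ratios between genes of separate units varied in how steady they were. rbcL to psbA was 0.844 and 0.913 in otp90, and 1.15 and 0.591 in Col-0, where the order of these genes per length differed between the replicates. psbA to psbD was 19.9 and 36.1 in otp90 and 21.6 and 37.8 in Col-0, with replicate 2 higher in each genotype. psbB to psaA was 3.48 and 4.02 in otp90 and 2.95 and 3.32 in Col-0, and atpB to atpA, from separate units of one complex, was 1.37 and 1.40 in otp90 and 1.36 and 1.75 in Col-0.

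The nuclear-encoded partners and regulators of these genes were read from lists that were likewise chosen with earlier results known. None of these genes was called by edgeR. The 17 tested nuclear NDH genes had a median log2 fold change of 0.34, within a range of -0.16 to 0.87. Of these, 13 of 17 were positive, beside 49.2% of all genes tested. The 12 photosystem I genes had a median of -0.23 with 3 of 12 positive, and the 11 photosystem II genes a median of 0.02 with 6 of 11 positive. Of the nuclear cytochrome b6f genes, 2 of 2 were positive, with a median of 0.19.

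All tested nuclear NDH genes but NdhS had their lowest level in Col-0 replicate 1. Within number 2, otp90 was below Col-0 in all tested nuclear NDH genes but NdhU, PnsB2, PnsB4 and PnsB5. Their positive median thus leaned on Col-0 replicate 1, and no median without that library was computed. PnsB2, a subunit of the photosynthetic NDH complex, had 77.9 and 104 CPM in otp90 and 30.5 and 69.3 CPM in Col-0. Its genotypes were apart, at a log2 fold change of 0.87 (SE 0.52). PnsL3 had 17.1 and 24.4 CPM in otp90, and 1.60 and 29.3 CPM in Col-0, where replicate 1 was the low library. In the plastid-encoded NDH genes Col-0 replicate 1 was not the low library as a rule, as ndhE shows, with 676 and 586 CPM per kb in otp90 and 757 and 491 CPM per kb in Col-0.

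For the transcription machinery, the 4 genes of the plastid-encoded polymerase had a median log2 fold change of 0.15, with 3 of 4 positive. The 6 sigma factor genes, whose products direct that polymerase to promoters, had a median of 0.17, with 5 of 6 positive. SIGC had the highest of these, at 0.75 (SE 0.48), with 43.8 and 47.8 CPM in otp90 and 20.5 and 34.1 CPM in Col-0, so its genotypes were apart. Of 9 genes for factors that process or stabilise transcripts of photosynthesis genes, 5 were positive, with a median of 0.09. At an unadjusted p under 0.05 in edgeR there was 1 of the 9, against 1.41% of all genes tested. This was CRR2, a factor needed to process ndhB transcripts. CRR2 had 17.9 and 30.5 CPM in otp90 and 5.61 and 5.86 CPM in Col-0, at a log2 fold change of 2.07 (SE 0.61) and an adjusted p of 0.9998 in edgeR. The gene rests on few counts, 22 and 55 in otp90 and 14 and 11 in Col-0. Its target ndhB could not be read in these tables, for the reason given above.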

How the data were processed

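The deposited tables hold read counts per gene model for each of the 4 libraries. The authors made them with sam2pkm, per the file headers, after removing reads with tied best alignments. The submitters' processing notes name the build TAIR10. The aligner, and whether counting used strand, are not given in the sources used here. A column of gene lengths stands beside the counts in the deposited tables.

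Members were found by locus after the model suffix was removed. The members, units and gene lists were chosen with earlier results of these data known. Symbols came from a hand-written list whose lengths were compared with the TAIR10.1 annotation. The 15 rRNA models entered neither library sizes nor tests, and 0 columns of per-sample values were left unused. Genes were kept by filterByExpr in edgeR 4.0.16 (R 4.3.3), scaled by TMM and compared by quasi-likelihood tests, two-sided, over all 11938 genes, with Benjamini-Hochberg adjustment, a call at 0.05 and no replicate block. The script was tested on simulated data. CPM per kb is the library-scaled count over the deposited length in kilobases. Apart means that both otp90 libraries lie above, or below, both Col-0 libraries, in level under TMM or in a ratio of levels. Within each complex the highest and lowest gene and the 2 with the smallest p were named by rule. The other genes with values were chosen by unit or after their values were seen. Alternatives were other scalings, no low-count filter, rRNA kept, DESeq2 1.42.0, a replicate block, each library left out, and 100 bases added to the lengths.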

Additional observations from a re-analysis of the deposited data

How the results depend on the processing

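None of the 12 alternative fits called a photosynthesis gene; the smallest adjusted p was 0.6412, for petG without Col-0 replicate 1, where 1 gene had an unadjusted p under 0.05. Over other scalings, no low-count filter, rRNA kept, DESeq2 and the replicate block, the median log2 fold change of the genes tested stayed between 0.14 and 0.31. With each library left out it ranged between -0.07 and 0.67, and the calls among all genes ranged between 0 and 33, against 0 with all 4 libraries: 24 when otp90 replicate 1 was omitted, and 30 and 33 for omission of replicates 1 and 2 of Col-0. The cause was not tested. Signs turned with a library left out for psaJ (range -0.61 to 0.0436, the upper without otp90 replicate 2), psbC (-0.28 to 1.54), petL (-0.24 to 0.69) and ndhF (-0.0310 to 0.79), all lowest without otp90 replicate 1, and for petG (-0.0679 to 2.06) and rbcL (-0.0302 to 0.77), both lowest without Col-0 replicate 2. Of the 42 photosynthesis genes tested, 11 kept their sign in all 12 fits, namely psbA, psaI, petD, ndhA, ndhC, ndhG, ndhJ, ndhK, atpH and atpI with a positive sign and psbI with a negative one; 31 changed sign with 1 library left out, among them ndhE, psbM and psbZ, which also did so under a scaling, filter, test or block. The otp90 minus Col-0 share of non-rRNA counts was 4.28 percentage points, 3.97 with rRNA kept and 1.18 over plastid counts, and ranged between 1.15 and 7.41 with a library left out. The labels do not say that replicate numbers pair the libraries; same-numbered libraries deviated together with a correlation of 0.217 over all genes and 0.142 over the photosynthesis genes, on 2 pairs. With the replicate block the median was 0.25, 36 genes were positive and 0 were called, and the share difference was 4.28. Adding 100 bases to each length kept the order of levels at a Spearman correlation of 0.974. Some extremes named above depend on the length used. With the added bases petL was the lowest gene with counts in place of ndhF. The highest photosystem I gene was then psaB in place of psaJ. Depth limits petL, petG, psbI and psaI most.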
